A study of Mus musculus with 21 samples.

Results

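The genes described here are 10 genes of the NRF2 and glutathione defence, *Nfe2l2*, *Nqo1*, *Hmox1*, *Gclc*, *Gclm*, *Slc7a11*, *Txnrd1*, *Srxn1*, *Gpx4* and *Gpx2*. They were taken by symbol from a table of 34478 genes, and all 10 were among the 19300 genes with enough signal to be tested. RNA-seq had been performed on 21 samples of 6 primary cell lines, #3, #4, #6, #7, #9 and #10, each grown from the pancreatic ductal adenocarcinoma (PDAC) of a mouse. All lines and all 4 cell states share the alleles Ptf1awt/Cre and Trp53loxP/loxP. In these mice the Cre recombinase is driven from the *Ptf1a* locus of the pancreatic lineage, which removes *Trp53* there. Parental cells (6 samples) had seen no drug. Resistant cells (6 samples) had been brought to grow in trametinib, an inhibitor of the kinase MEK (MEKi), at 100 times the IC50 of their line and were kept in it. Reverting cells came from the resistant cultures and were passaged in drug-free medium, 12 times for P12 (6 samples) and 5 times for P5 (3 samples, lines #3, #7 and #9). For 2 of the 3 P5 samples, those of lines #7 and #9, the sample description speaks of 12 drug-free passages, and they are called P5 here after their title and group. There was 1 library for each line and state, so replicate error here means the spread between the 6 lines.

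NRF2, encoded by *Nfe2l2*, is the transcription factor that cells use against oxidants and electrophiles. Its partner KEAP1 marks it for degradation until reactive molecules modify KEAP1, after which NRF2 pairs with small MAF proteins on antioxidant response elements (AREs), where the repressor BACH1 competes with it. Its targets supply glutathione, reduce thioredoxin, detoxify quinones and split heme. Because NRF2 is controlled mainly at the level of the protein, the RNA of *Nfe2l2* does not report how active NRF2 is. In PDAC, NRF2 is known for keeping reactive oxygen low, and signalling through MEK is known to raise its transcription.

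Promoter sequences of 8 of the 10 genes were matched in RefSeq (build GRCm38.p6, 13 windows, since a gene can have several starts). They are shown because the genes are commonly grouped as ARE genes, and the windows differ in which letters they carry. The letters TGACNNNGC, the ARE core on either strand, occurred within 250 bases upstream of the start in 3 of these 8 genes and 3 of their 13 windows, against 10.2% of all 32851 promoter windows. The matches lay 240 bases before the start of *Nfe2l2* itself, 134 bases before that of *Gclm* and 92 bases before a start of *Txnrd1*. That start of *Txnrd1* lies inside the gene, downstream of its annotated first base at chr10:82833951. The AP1 site TGACTCA, whose letters can overlap those of an ARE, was found in 4.46% of all windows and, among these genes, at 2 places in the window of *Srxn1*, 102 and 45 bases before its start. Capitals mark the match in the sequences below, which run in the direction of the gene, and a match shows letters and not a bound site.
Nfe2l2, chr2:75704870-75704913, minus strand: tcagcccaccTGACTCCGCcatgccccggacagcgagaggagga
Gclm, chr3:122245398-122245456, plus strand: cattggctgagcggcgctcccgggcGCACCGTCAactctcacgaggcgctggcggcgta
Txnrd1, chr10:82859089-82859147, plus strand: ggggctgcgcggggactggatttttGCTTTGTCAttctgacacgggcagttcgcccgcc
Srxn1, upstream site, chr2:152105397-152105453, plus strand: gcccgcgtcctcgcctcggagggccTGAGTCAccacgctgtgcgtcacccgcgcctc
Srxn1, downstream site, chr2:152105454-152105510, plus strand: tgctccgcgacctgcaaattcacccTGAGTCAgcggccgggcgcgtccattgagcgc
The windows of *Nqo1*, *Slc7a11*, *Gpx4* and *Gpx2* held neither set of letters within these 250 bases, and *Hmox1* and *Gclc* had no window. Sequence farther from the start was not searched, so a missing match does not mean that a gene lacks an ARE.

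Values are the authors' normalized counts, and the number of reads behind a sample was estimated at 24.0 to 42.7 M (M for mega), which puts 3 reads at 2.31 to 4.07 normalized counts. As a check of the states, the 10 genes of a list of MAPK output (such as *Dusp6*, *Spry4* and *Etv4*) summed to 28043 to 38823 in parental, 1289 to 5719 in resistant and 29277 to 43540 in P12 cells. All 10 were called lower in resistant than in parental cells and all 10 higher in P12 than in resistant cells. As a check of the cell type, the summed ductal epithelial markers (8 listed) ranged from 18440 to 294804 in parental and from 1821 to 210821 in resistant cells. *Epcam* was at 0 in every parental and resistant sample, so in parental cells the ductal label rests on the keratins, *Cdh1*, *Muc1* and *Sox9*. In resistant cells it does not rest on *Cdh1* or *Muc1*, whose medians there were 58.4 and 56.7 against 30049 and 7103 in parental cells. *Sox9* had medians of 1541 in parental, 244 in resistant and 2923 in P12 cells. The summed fibroblast markers (8 listed) ranged from 109 to 25124 in parental, 1903 to 577873 in resistant and 230 to 156276 in P12 cells. Leukocyte markers (7 of 8 in the table) summed to 141 to 277 in parental and 207 to 2901 in resistant cells, with *Csf1r* alone reaching 2529.98 there. Endothelial markers (6) summed to 45.1 to 180.5 and 32.8 to 2757, with *Tek* reaching 2512, and acinar markers (7) to 50.9 to 317 and 7.12 to 602, with medians of 137 and 84.1. Ductal sums had a lower and fibroblast sums a higher median in resistant cells (62719 against 255894, and 179315 against 528), and their part in the results below was not tested. In bulk RNA, fewer cells of a type and less RNA per cell cannot be told apart.

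A difference was called where limma gave a Benjamini-Hochberg adjusted p below 0.01 over all 19300 genes and an absolute log2 fold change over 1. Log2 values carry a pseudocount of 1, so fold changes of low genes are understated. Between resistant and parental cells 5.3% of the tested genes were called and none of the 10 NRF2 and glutathione genes, although 5 of the 10 had an unadjusted p below 0.05 (5642 of 19300 genes did). With the cell line as a block, which compares each resistant culture with its own parental line, 10.5% of the genes were called, and among the 10 these were *Hmox1*, which was higher, and *Nqo1*, which was lower. At an adjusted p below 0.05 without a fold limit, 15.6% of all genes and 4 of the 10, *Nfe2l2*, *Nqo1*, *Hmox1* and *Gpx2*, passed. Of these, *Gpx2* had entered the test only through its parental values. The median log2 fold change of the 10 genes was -0.62, against -0.005 over all tested genes, with 3 values above 0 and 7 below.

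**Figure D1:**
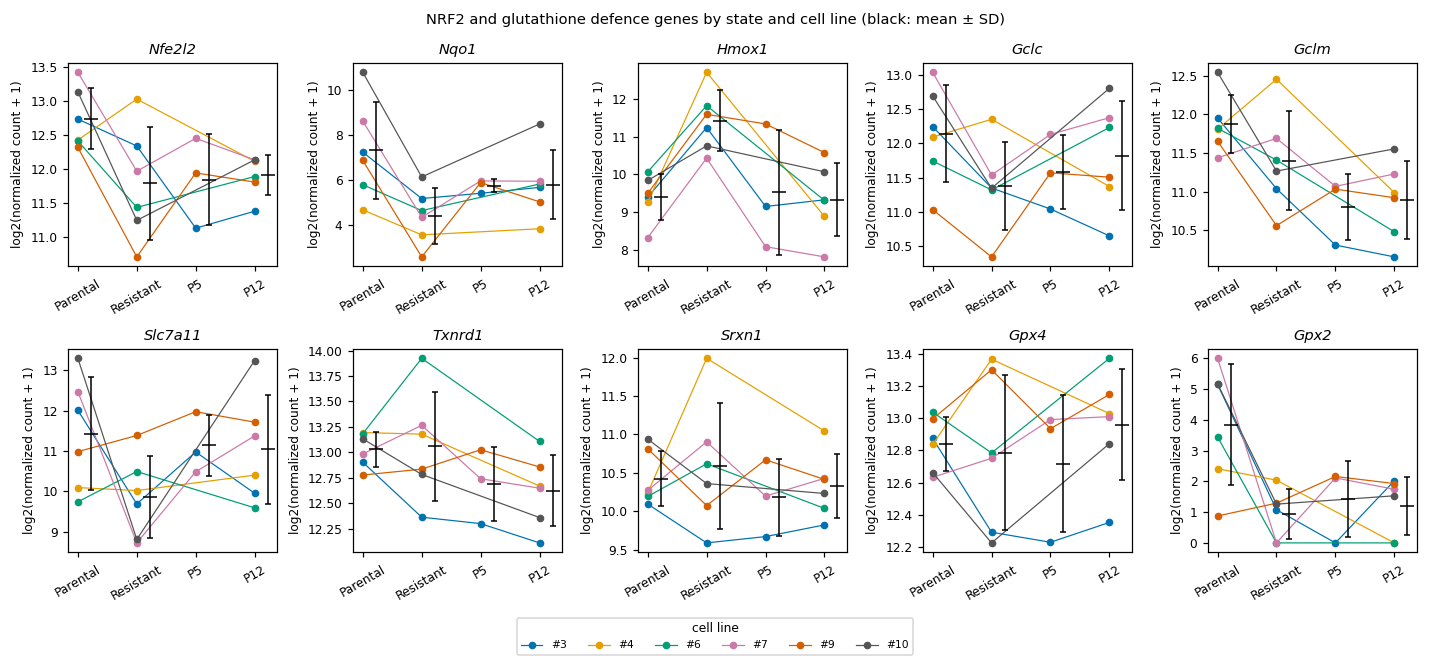
Each panel shows 1 gene on a log2 axis of normalized counts plus 1, by cell state; coloured points are the samples of the 6 cell lines joined within a line, and black marks are the mean ± SD (n = 6, or 3 for P5). *Hmox1* peaks in the resistant state in 6 of 6 lines when set against parental and P12 cells, *Nqo1* is lowest there in 6 of 6, and *Gpx4* spans 4788 to 10602 over all samples.

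*Hmox1* (chr8:75093621-75100589, plus strand, GRCm38) encodes heme oxygenase 1, which splits heme into biliverdin, iron and carbon monoxide and is repressed by BACH1. Its parental values lay between 318 (line #7) and 1072 (line #6) with a median of 696 normalized counts, and the resistant values between 1381 (line #7) and 6729 (line #4) with a median of 2765. The lowest resistant sample was above the highest parental one, a separation seen for 5.99% of all tested genes and for no other of the 10. Within lines, *Hmox1* was higher in the resistant culture in 6 of 6, by 0.92 (line #10) to 3.46 (line #4) on the log2 scale, and 18.5% of all genes moved the same way in all 6 lines. The log2 fold change was 2.04 ± 0.519 (SE), a 4.10-fold difference, with an adjusted p of 0.0126 in limma without and 0.000946 with the block. The blocked call was kept without each line in turn, with adjusted p from 0.00142 to 0.00657.

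After drug withdrawal *Hmox1* was lower again. P12 values ran from 223 (line #7) over a median of 636 to 1528 (line #9), a range that overlapped with both the parental and the resistant one. In the P12 cells *Hmox1* was lower than in resistant cells in 6 of 6 lines, where 16% of all genes had 1 direction in all 6 lines, with a log2 fold change of -2.10 ± 0.519 (SE) and an adjusted p of 0.0191 without the block. With the block the adjusted p was 0.00163, and *Hmox1* was the only one of the 10 called, among 4.52% of all genes. That blocked call was lost without line #3 (adjusted p = 0.0116) or line #7 (adjusted p = 0.0126), and in fits of the compared states alone, with the block (adjusted p = 0.0221) or without it (adjusted p = 0.0362). None of the 10 was called without the block (2.13% of all genes were), 1 of the 10 had an unadjusted p below 0.05 (3821 of all genes), and at an adjusted p below 0.05 *Hmox1* alone passed, among 6.22% of all genes. For none of the 10 were the P12 and resistant groups free of overlap, which held for 2.45% of all genes. Against parental cells the P12 difference of *Hmox1* was -0.07 (95% interval -1.15 to 1.02).

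The P5 samples of *Hmox1* held 565 (line #3), 269 (line #7) and 2595 (line #9) normalized counts. Lines #3 and #7 were thus already below their own parental values at P5, whereas line #9 was close to its resistant value of 3101. Line #9 was also the line with the highest *Hmox1* at P12.

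*Nqo1* (chr8:107388225-107403206, minus strand) encodes the quinone reductase NQO1, a textbook readout of NRF2, and it went the other way. Parental values spread widely, from 24.5 (line #4) over a median of 132 to 1736 (line #10). Resistant values lay between 5.03 (line #9) and 69.1 (line #10) with a median of 21.6, so that the groups overlapped although every line had less *Nqo1* once resistant. The within-line differences ran from -1.11 (line #4) to -4.63 (line #10) on the log2 scale. The log2 fold change was -2.91 ± 0.869 (SE), a 7.52-fold lower level, with an adjusted p of 0.0286 without and 0.000593 with the block. The blocked call was kept without each line in turn, with adjusted p from 0.00111 to 0.00539. It was lost when the resistant and parental states were fitted alone with the block (adjusted p = 0.0189).

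In P12 cells *Nqo1* was between 13.3 (line #4) and 355 (line #10) with a median of 52.6, above its resistant value in 6 of 6 lines and below its parental value in 5 of 6. Only line #6 stood at its parental level (55.4 against 54.2). The P12 difference was 1.39 ± 0.869 (SE) against resistant cells (adjusted p = 0.414 in limma without the block) and -1.52 ± 0.869 (SE) against parental cells (adjusted p = 0.413). Neither was called with the block. The 3 P5 samples held 41.4 (line #3), 61.0 (line #7) and 57.9 (line #9), again between the resistant and the parental value of the same line.

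*Nqo1* was also the only one of the 10 with a difference between cell lines once the state was taken into account (F test in limma, adjusted p = 0.00495), a call made for 7.92% of all genes. Line #10 had the highest *Nqo1* in parental, resistant and P12 cells, and line #4 the lowest in parental and P12 cells. The call was lost when line #3, #4, #7, #9 or #10 was left out, and kept without line #6. Over the parental, resistant and P12 samples, without P5, cell line accounted for 51.3% and state for 37.5% of the variance of *Nqo1*. For *Hmox1* the state took 63.6% and the line 21.2%. For *Gpx4* the line took 57.5% and the state 4.68%. Over all tested genes the median share was 35.8% for the line and 19.8% for the state. There are more lines than states and the shares are not corrected for that. A line share is therefore to be read against the median line share, and a state share against the median state share.

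**Figure D2:**
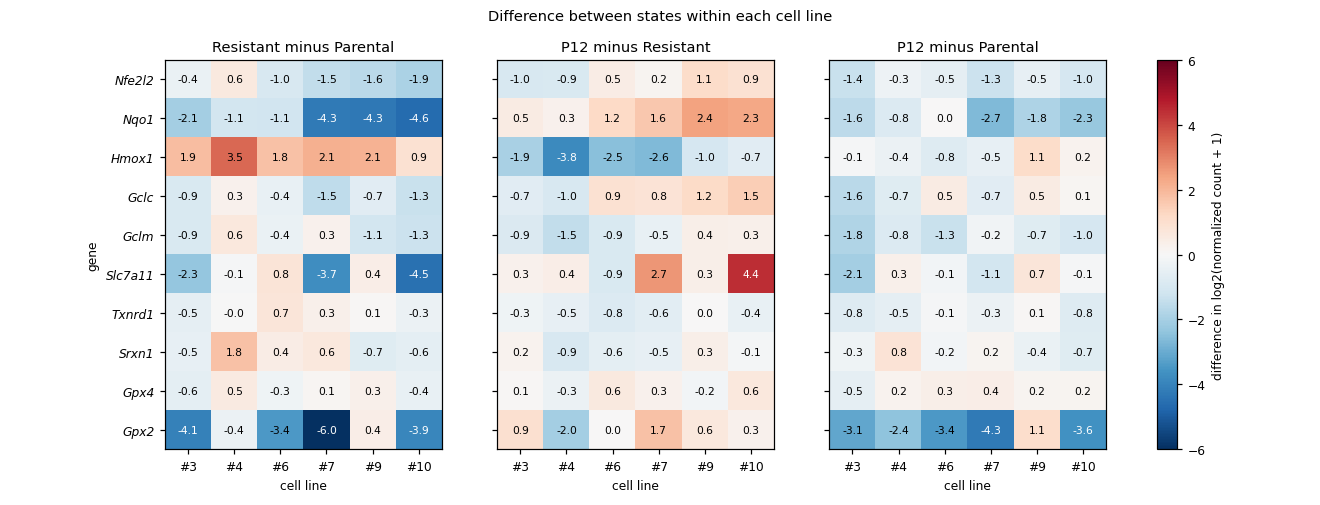
Differences in log2(normalized count + 1) between 2 states of the same cell line, by gene (rows) and cell line (columns), for resistant minus parental, P12 minus resistant and P12 minus parental cells; red is higher and blue is lower in the state named before the minus sign. *Hmox1* is red in all 6 lines of the left panel and blue in all 6 of the middle panel, *Nqo1* is the reverse, and *Slc7a11* spans -4.49 to 0.75 in the left panel.

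*Nfe2l2* (chr2:75675513-75704641, minus strand) itself was abundant in all states. Its parental values ran from 5101 (line #9) over a median of 6153 to 10980.2 (line #7). In resistant cells they ran from 1666 (line #9) over 3381 to 8351 (line #4), with lower values than parental in 5 of 6 lines and a higher one in line #4, where 5499 became 8351. The log2 fold change of -0.96 ± 0.322 (SE) had an adjusted p of 0.04996 without and 0.0291 with the block, and its size was under the fold limit. Leaving out line #4, the only line with a rise, necessarily made the fall larger (-1.27, called with the block at adjusted p = 0.00814). Over 23 settings of the fit the value lay between -1.27 and -0.77 with an adjusted p of up to 0.204, and 2 settings called it.

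In P12 cells all values of *Nfe2l2* were below the parental ones. They lay between 2657 (line #3) and 4491 (line #7) with a median of 4105 against a lowest parental value of 5101. Such a separation between P12 and parental cells was found in 1.52% of all tested genes and in none of the other 9. *Nfe2l2* was lower in 6 of 6 lines, as was *Gclm*, where 13.4% of all genes had 1 direction in all lines. The difference of -0.83 ± 0.322 (SE) had an adjusted p of 0.221 without the block and was not called. At P5 the values were 2235 (line #3), 5595 (line #7) and 3929.8 (line #9), each below its own parental line.

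Of 13 tested genes for proteins that degrade, partner or oppose NRF2, 1 was called in resistant against parental cells, where 5.3% of all genes were. This was *Nfe2l1*, which encodes the related factor NRF1. Its values were 7360 to 11999.8 in parental and 10249.6 to 26537 in resistant cells, higher in 5 of 6 lines (log2 fold change 1.05 ± 0.256, SE, adjusted p = 0.00959). With the block, the small MAF gene *Maff* was called as well, at -2.07 (adjusted p = 0.00995), which made 2 of 13 against 10.5% of all genes. *Keap1* differed by 0.28 ± 0.243 (SE) and *Bach1* by 0.63 ± 0.289 (SE), and neither was called.

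Glutathione is made in 2 steps, and its limiting step is run by the catalytic subunit *Gclc* with the modifier *Gclm*, fed with cystine by the exchanger xCT, the product of *Slc7a11*. *Gclc* ranged from 2093 (line #9) over 4609 to 8411 (line #7) in parental and from 1296 (line #9) over 2602 to 5225 (line #4) in resistant cells. It was lower in 5 of 6 resistant cultures, with a difference of -0.77 ± 0.383 (SE) that was not called (adjusted p = 0.191 in limma). P12 values of *Gclc* were 1604 (line #3) to 7152 (line #10) with a median of 3858, split evenly into 3 lines above and 3 below their parental value.

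*Gclm* had its lowest median in P12 cells. Parental values were 2774 (line #7) to 5978 (line #10) with a median of 3604, resistant values 1509 (line #9) to 5616 (line #4) with a median of 2589.8, and P12 values 1139 (line #3) to 3006 (line #10) with a median of 1984. Every line had less *Gclm* at P12 than at the start, by 0.21 (line #7) to 1.80 (line #3) on the log2 scale. The P12 difference from parental cells was -0.98 ± 0.284 (SE), with an adjusted p of 0.115 without and 0.0382 with the block, and it was not called in either fit. The P12 and parental ranges overlapped. The 3 P5 samples, at 1267, 2146 and 2094 for lines #3, #7 and #9, were each below the parental value of the same line.

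*Slc7a11* divided the cell lines. Resistant cells of lines #3, #7 and #10 held 824, 422 and 448 normalized counts where their parental cells held 4127, 5684 and 10081. In lines #4, #6 and #9 the resistant values were 1038, 1439.8 and 2675 against 1093, 855 and 2027. The mean difference was -1.58 ± 0.660 (SE), with within-line differences from -4.49 (line #10) to 0.75 (line #6), and it was not called (adjusted p = 0.112 in limma). Without line #10 it was -0.999. At P12 line #10 was back at 9704 and line #7 at 2656, while line #3 was at 991.

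*Txnrd1* encodes the cytosolic thioredoxin reductase and *Srxn1* encodes sulfiredoxin, which repairs overoxidized peroxiredoxins. *Txnrd1* lay between 7014 (line #9) and 9372 (line #4) in parental and between 5262 (line #3) and 15548 (line #6) in resistant cells, with medians of 8536 and 8286. Its difference between the 2 states was 0.03 (95% interval -0.42 to 0.48). *Srxn1* lay between 1091 (line #3) and 1961 (line #10) in parental and between 769 (line #3) and 4068 (line #4) in resistant cells, a difference of 0.16 (95% interval -0.49 to 0.82). In both genes 3 lines were higher and 3 lower. At P12 *Txnrd1* was below its parental value in 5 of 6 lines (difference -0.40 ± 0.215, SE, adjusted p = 0.381 in limma).

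*Gpx4*, the glutathione peroxidase that reduces lipid hydroperoxides and so holds back ferroptosis, was the most abundant of the 10 per kb of transcript in all 4 states. Its parental values were 6351 (line #7) to 8408 (line #6) and its resistant values 4788 (line #10) to 10560.2 (line #4), with medians of 7414 and 6974. The difference between resistant and parental cells was -0.05 (95% interval -0.49 to 0.38), and between P12 and parental cells 0.12 (95% interval -0.31 to 0.55). Of the 31-base words in its transcripts, 38.9% also occur in other genes, 38.7% in the pseudogene *Gpx4-ps2* alone, so reads could have been split between them.

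*Gpx2*, a glutathione peroxidase of the gut and other epithelia, was the lowest of the 10 in every state. Parental values were 34.5, 4.3, 9.9, 63.0, 0.83 and 34.96 for lines #3, #4, #6, #7, #9 and #10. All 6 resistant samples were at or under the value of 3 reads, with 3.11 (line #4) as the highest, as were 5 of 6 P12 samples, the exception being line #3 with 3.06. Summed over the libraries, an estimated 172 reads in parental and 6 in resistant cells gave a level per M reads of 3.78% of parental (exact 95% interval 1.37% to 8.39%, counting error only). For P12 the same share was 6.16% (2.90% to 11.6%) from 10 reads. For P5 it was 7.58% (2.74% to 16.8%) from 6 reads, but here lines #3, #7 and #9 were set against the parental cells of all 6 lines. Line #7 held much of the parental signal, and without it the resistant share was 6.87% (2.46% to 15.5%), while without line #4 it was 2.46% (0.66% to 6.42%). The P5 share, again with unequal sets of lines on the 2 sides, was 12.1% without line #3 and 4.81% without line #9.

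*Gpx2* reached the filter value of 10 only in parental cells of lines #3, #7 and #10. It was thus tested only through the group where it is high, and its fitted values and calls in all comparisons are a description. The fitted log2 fold change of *Gpx2* between resistant and parental cells was -2.90 ± 0.751 (SE), with an adjusted p of 0.0138 in limma, and the size depended on the pseudocount (-1.46 with a pseudocount of 8). Line #9 had almost no *Gpx2* in its parental cells. Without that line the difference was -3.56 and was called, with adjusted p of 0.00412 without and 0.00276 with the block. Of the 31-base words of *Gpx2*, 9.64% are shared with other genes, mostly *Gpx2-ps1*.

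Between P12 and parental cells none of the 10 was called without the block (0.114% of all genes were) or with it (0.523%), and 3 of the 10, *Nfe2l2*, *Gclm* and *Gpx2*, had an unadjusted p below 0.05 (2953 of all genes). *Gpx2* differed by -2.64 ± 0.751 (SE, adjusted p = 0.111 in limma). Between P5 and resistant cells none of the 10 was called (0.378% of all genes), and only *Hmox1* had an unadjusted p below 0.05, among 2976 genes, at -1.91 ± 0.636 (SE). Between P5 and parental cells none was called either (0.0259% of all genes), with unadjusted p below 0.05 for *Nfe2l2*, *Gclm* and *Gpx2*, among 2003 genes. The comparisons share their parental or resistant samples, and P5 holds only 3 lines.

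Neither *Hmox1* nor *Nqo1* overlaps another annotated gene. *Nfe2l2* overlaps *Gm24996*, *Txnrd1* overlaps *Eid3*, *Gclm* overlaps *Gm6061* and *Slc7a11* overlaps *Gm37498* and *Gm37692* on the same strand. Of the 31-base words in the transcripts of *Nfe2l2* and *Txnrd1*, 0% also occur in other genes. The share was 5.61% for *Gclm*, mostly with *Ppia* (3.55%), and 2.84% for *Slc7a11*. Some reads of *Gclm* and *Slc7a11* could therefore have been split. Per kb of transcript, using the median length of a gene's coding transcripts, the parental medians ran from 7731 for *Gpx4* over 2490.2 for *Txnrd1*, 2486 for *Nfe2l2*, 1346 for *Gclc*, 1093 for *Gclm*, 529 for *Slc7a11*, 443 for *Hmox1*, 434 for *Srxn1* and 85.0 for *Nqo1* to 20.8 for *Gpx2*. The ranges of *Gpx4* and *Txnrd1* over the lines did not overlap, while all the other neighbours in that order overlapped over the 6 lines. In resistant cells *Hmox1* stood in place 3, with a median of 1762 per kb between *Txnrd1* (2417) and *Nfe2l2* (1366), and overlapped with both. *Slc7a11* (160.0), *Nqo1* (13.9) and *Gpx2* (1.17) closed the order there without overlapping each other.

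Of the 45 pairs of genes, 35 had a Pearson r above 0 over the 21 samples on the log2 scale and 12 an r above 0.5, with a median of 0.24. *Nfe2l2* correlated most with *Gclc* (r = 0.79) and *Gclm* (r = 0.72), and these values were 0.79 and 0.68 once the mean of each state was subtracted. *Gclm* with *Srxn1* had an r of 0.63, and 0.74 after subtraction. *Hmox1* had an r of -0.39 with *Nqo1*, -0.32 with *Gclc* and -0.24 with *Nfe2l2*, which became -0.05, -0.10 and -0.03 after subtraction. These are descriptions over samples that share 6 cell lines and a common normalization.

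**Figure D3:**
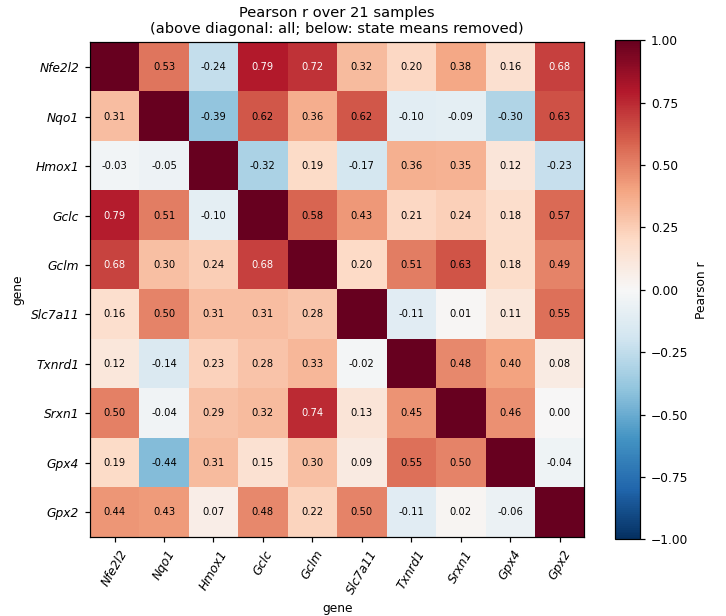
Pearson r between pairs of the 10 genes over 21 samples on log2(normalized count + 1), above the diagonal for all differences and below it after the mean of each state was subtracted. The highest value above the diagonal is that of *Nfe2l2* with *Gclc* (0.79), and 5 of the 10 negative values above the diagonal belong to pairs with *Hmox1*.

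Outside the 10, the genes most like *Hmox1* over the 21 samples were *Zdhhc7*, a palmitoyltransferase (r = 0.92), *Cryab*, a small heat shock protein (r = 0.87), and *Polb*, the repair DNA polymerase beta (r = 0.87). For *Nqo1* they were *D930028M14Rik* (r = 0.82), *Pura* (r = 0.81) and the trefoil peptide gene *Tff1* (r = 0.80). For *Slc7a11* they were *AC091458.6* (r = 0.82), the vitamin C transporter gene *Slc23a2* (r = 0.81) and *Gm37652* (r = 0.80). For *Gpx2* they were *Cyp21a1*, *Hnf1aos1* and *Degs2* (r = 0.88, 0.87 and 0.87), and their values outside the parental cells were at most 15.2.

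Some other enzymes of the defence were called without the block. Glutathione transferases, which couple glutathione to reactive molecules, had 26 tested genes. Of these, 4 fell and none rose in resistant cells, beside 5.3% of all genes called in either direction. A log2 fold change below 0 was found in 24 of 26, with a median of -1.19 against -0.005 over all genes. Of the 4 called genes the largest fall was that of *Mgst2*, from a parental median of 1649 to 71.6 (log2 fold change -5.07 ± 0.990, SE, adjusted p = 0.00212 in limma). *Mgst3* fell from 3484.5 to 364 (-3.07 ± 0.395, SE, adjusted p = 7.40e-05), and the other 2 were *Gsto1* and *Gstcd*. With the block 6 fell, *Gsta1* (-5.78) and *Gsto2* being added, and 1 rose, *Mgst1*, from 309 to 1351, beside 10.5% of all genes called. In P12 against resistant cells *Gsto1*, *Gsto2* and *Mgst3* rose, and with the block *Mgst2* as well. The shares of all genes called there were 2.13% without and 4.52% with the block. Several genes of this family are close copies, and reads could have been split among them.

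In the lists that follow, the shares of all genes called between resistant and parental cells were 5.3% without and 10.5% with the block. Among 20 tested genes of the glutathione cycle 1 was called, close to the share of all genes. It was *Gpx3*, the secreted peroxidase, with a fall from a median of 67.4 to 4.7 (log2 fold change -3.99 ± 0.841, SE, adjusted p = 0.00363 in limma). Of 10 genes in a list around NADPH supply, *Tkt* (-1.11 ± 0.1997, SE) and *Idh1* (-1.35 ± 0.295, SE) fell. Not all products of that list make NADPH themselves, and that of *Tkt* does not. Among 14 genes of heme and iron handling, 1 rose in resistant cells, the ferrochelatase gene *Fech* (1.03 ± 0.1998, SE, adjusted p = 0.0021), whose product makes the heme that heme oxygenase splits, again a share near that of all genes. With the block the heme transporter gene *Slc48a1* was added, at 1.76, from a median of 1722 to 5731.

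Of 18 other NRF2 targets, 1 rose and 2 fell in resistant cells, beside 5.3% of all genes called in either direction. *Akr1c14*, an aldo-keto reductase, rose from a median of 24.97 (range 0.99 to 129) to 2827 (range 351 to 5423), a log2 fold change of 6.48 ± 0.942 (SE, adjusted p = 0.000206 in limma). Its relative *Akr1b8* fell from a median of 4475 to 855 (-2.71 ± 0.383, SE) and the esterase gene *Esd* from 9679.9 to 3300.4 (-1.44 ± 0.283, SE). With the block *Ugdh* fell too. *Akr1b8* was in addition lower in P12 than in parental cells with the block (-1.49, adjusted p = 0.00919), the only gene of these lists for which that was so.

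Of 14 genes of lipid peroxidation and ferroptosis, the metal transporter gene *Slc39a14* fell in resistant cells (-1.82 ± 0.261, SE) and rose in P12 against resistant cells (1.49 ± 0.261, SE). With the block *Acsl4*, *Scd1* and *Ptgs2* fell in resistant cells as well. None of 15 thioredoxin and peroxiredoxin genes and none of the 4 superoxide dismutase and catalase genes was called in resistant against parental cells by limma with or without the block, where 4 and 1 had an unadjusted p below 0.05. With 5.3% of all genes called, lists of this size can hold no called gene, and nothing is read from these counts. In the latter, *Sod2* and *Cat* were higher in 6 of 6 resistant lines, *Sod3* in 5 and *Sod1* in 1. Of all genes, 18.5% had 1 direction in all 6 lines. *Sod2* missed both the fold limit and the adjusted p limit (0.77 ± 0.1995, SE, adjusted p = 0.0136 in limma). *Cat* had medians of 2723 in parental and 5091 in resistant cells. *Cat* was called with the block as lower in P12 (-1.29) and P5 (-1.38) than in resistant cells.

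Apart from the transferases and *Slc39a14*, no gene of these lists was called in P12 against resistant cells by limma without the block, where each list had 0 to 6 genes with an unadjusted p below 0.05. With the block *Nfe2l1* (-1.01) and *Akr1c14* (-3.59) fell, and *Akr1b8* (1.22) and *Acsl4* (1.82) rose, each opposite to its direction in resistant against parental cells. Both comparisons use the same resistant samples, which by itself favours opposite directions, so nothing is read from the reversal. In P12 against parental, P5 against resistant and P5 against parental cells no gene of these lists was called without the block, with 0 to 6, 1 to 6 and 0 to 5 genes of a list at an unadjusted p below 0.05. With the block *Slc39a14* rose (1.37) and *Cat* fell in P5 against resistant cells.

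**Figure D4:**
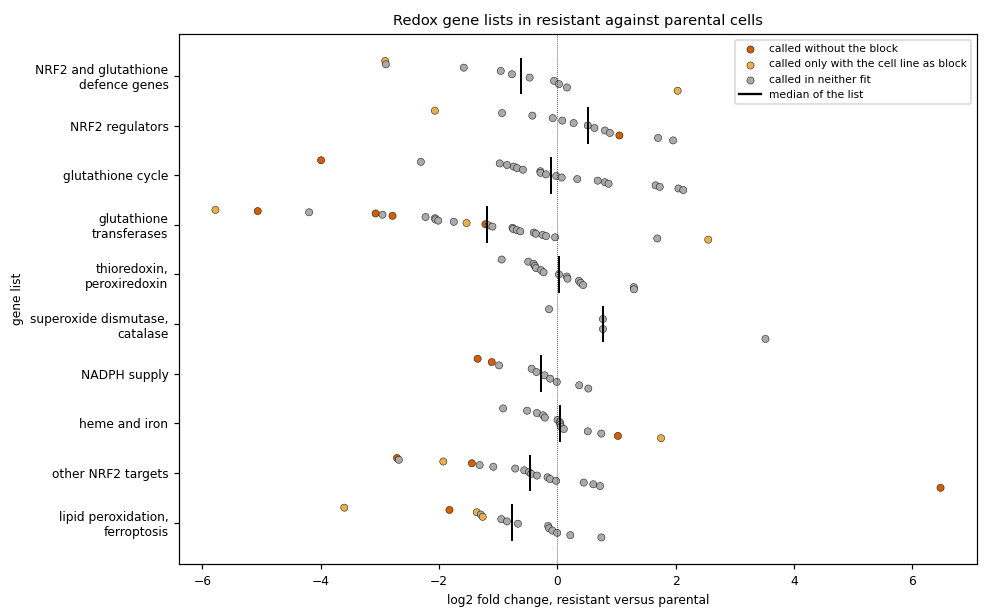
Log2 fold change between resistant and parental cells (limma, n = 6 lines each) of every tested gene in 10 lists, 1 point a gene, with the median of each list as a black bar; colours give the genes called without the block, called only with the cell line as block, and called in neither. The transferases lie mostly to the left of 0 with a median of -1.19, and *Akr1c14* at 6.48 is the point farthest to the right.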

How the data were processed

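RNA of 21 samples of 6 murine PDAC cell lines in 4 states was sequenced (TruSeq Stranded mRNA, HiSeq or NovaSeq, with no source used here assigning samples to sequencers, so that sequencer and state cannot be told apart). The deposited table holds a signal per gene, gene counts that the authors normalized with DESeq2 (1.18) after trimming with Skewer, quantification with Salmon (0.12) against mm10 and import with TXImport. CASAVA (2.17) and bcl2fastq (2.19) are given in the submitters' processing notes. Raw reads could not be recovered, since only 62.7% to 77.2% of low values fell on multiples of 1 read (tolerance 0.05 reads), so no count test was run. Deposited depth is unknown beyond the estimate made from these steps. All columns were assigned to samples by title.

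From these values log2(value + 1) was taken, and genes reaching a value of 10 in 3 samples or more were fitted with limma 3.58.1 (trend, R 4.3.3) over all 4 states. Cell line as a block was an alternative. A number marks 1 cell line, and same-line deviations from the state means correlated with a mean r of 0.24 (resistant and parental), 0.46 (P12 and resistant) and 0.32 (P12 and parental), the lowest single r being -0.06, for a P5 and parental pair. Tests were checked on simulated data. Transcript lengths and overlaps came from GENCODE M21, promoters from RefSeq. Other tools were Python 3.11.15, numpy 2.4.6, pandas 2.3.3, scipy 1.17.1 and matplotlib 3.10.9.

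The 10 genes and all lists were chosen with earlier results of these data known, and the lists were recalled from general knowledge. Named were all 10 genes, from each other list at most 2 rises and 2 falls of the largest size among called genes, genes called in P12 against parental cells, and the 3 genes most like *Nqo1*, *Hmox1*, *Slc7a11* and *Gpx2* by Pearson r. Genes called only with the block, *Keap1*, *Bach1* and *Sod2* were named after their values were seen. Alternatives were pseudocounts of 0.5 and 8, other filters, upper-quartile rescaling, the block, no trend, an adjusted p below 0.05, the compared states alone, and each line left out. Part of the genotype in the labels is not reported here.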

Additional observations from a re-analysis of the deposited data

How the results depend on the processing

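Of the 10 genes, none was called in resistant against parental cells without the block. The count was 2 with the cell line as a replicate block (*Hmox1* and *Nqo1*), 4 at an adjusted p below 0.05 without a fold limit, 1 (*Hmox1*) in a fit of the compared states alone and 1 (*Hmox1*) in that fit with the block. It was 0 to 2 with each line left out (*Hmox1* without line #7, *Hmox1* and *Gpx2* without line #9), and 2 to 3 with the block and each line left out, a setting chosen after seeing the data. In P12 against resistant cells the count was 0, 1 with the block, 1 at an adjusted p below 0.05, 0 in fits of the compared states alone with or without the block, 0 to 1 with each line left out (*Hmox1* without line #9), and 0 to 1 with the block and each line left out. Between cell lines it was 1, 3 at an adjusted p below 0.05 (*Hmox1*, *Nqo1* and *Txnrd1*), and 0 to 1 with each line left out. The block changed no other call of the 10. The causes were not tested.

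Over 20 pairs of gene and comparison with an unadjusted p below 0.05 in either fit, 437 of 437 alternative values kept their direction, 405 also their side of the threshold, and 32 were newly called. Over the other 30 pairs, 608 of 658 kept their direction and 50, in 15 pairs, did not, none of them called.

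All genes called in resistant against parental, P12 against resistant, P12 against parental, P5 against resistant and P5 against parental cells numbered 1023, 412, 22, 73 and 5. With the block they were 2017, 872, 101 and 118 in the first 4 comparisons, and at an adjusted p below 0.05 3016, 1201, 127, 399 and 9, with 4679 in place of 1528 between lines. In fits of the compared states alone, the last 4 comparisons gave 93, 12, 14 and 1, and with the block the last 3 gave 3, 0 and 0. With a mean value of at least 100, P12 and P5 against parental cells gave 5 and 3.

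With 1 sample per line and state, and few estimated reads for *Gpx2*, differences below the spread between lines were not detectable.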

Other observations

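The genes whose pattern was most like *Hmox1* and *Nqo1* differ in level: *Cryab* had medians of 72.9 in parental, 3780.0 in resistant and 368 in P12 cells, and *Tff1* had medians of 621, 0.45 and 2.07 in the same order, with a highest P12 value of 12599. For *Hmox1*, *Zdhhc7* ranged from 1393 to 2269 in resistant and from 914 to 1205 in parental cells, without overlap. These genes were picked for their likeness over the same samples, so the values are a description.

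Within each state of 6 samples, none of 30 combinations of gene and state had a sample apart from the others by Dixon's test at the 95% level.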
